A study of Mus musculus with 9 samples.

Results

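The Prader-Willi and Angelman domain is a stretch of mouse chromosome 7 that holds imprinted genes, which are expressed from one parental allele in at least some tissues. Its members here were the 8 genes *Atp10a*, *Ube3a*, *Snhg14*, *Snrpn*, *Ndn*, *Magel2*, *Mkrn3* and *Peg12*, named by their place in the domain and not by any measured value. All 8 were found among the 55450 genes counted, and all 8 were among the 19371 tested, those with 5 or more counts per library on average.

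The study asked how gene expression, including that of imprinted genes, differs between the embryonic and the adult pituitary. Bulk RNA was sequenced from 7 embryos at e13.5, as dissected Rathke's pouch (RP), and from 2 adult mice at 8 weeks, as pituitary without its posterior lobe, that is the anterior and intermediate lobes. RP is the oral epithelium that forms those lobes. The embryos carried the Sox2Egfp allele, the labels do not give it for the adults, and the strain of both was 129Sv/c57BL6J. The study's methods give both sexes among the embryos, and 1 male and 1 female as the 2 adults. Sex was not given per sample and was not used, and each library came from 1 animal. The libraries held 16738863 to 28537311 read pairs counted on genes in the embryos, and 36421545 and 31191117 in adults 1 and 2.

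In the brain, *Snrpn*, *Snhg14*, *Ndn*, *Magel2*, *Mkrn3* and *Peg12* are expressed from the paternal allele. *Ube3a* is expressed from the maternal allele in neurons, where *Snhg14* runs antisense to it, and *Atp10a* has been listed as maternally expressed. Loss of the paternal genes causes Prader-Willi syndrome, in which pituitary hormones such as growth hormone are often low, and loss of maternal *UBE3A* causes Angelman syndrome. The counts do not separate the alleles, so everything below is the level summed over both.

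Levels are in CPM, the count of a gene relative to the size of its library, with library sizes adjusted by the TMM method. A gene was called when its Benjamini-Hochberg adjusted p from the quasi-likelihood test of edgeR was below 0.05 and its fold change was above 4. A positive log2 fold change means a higher level in the embryo, and each is given with its standard error (SE). The p-values measure the spread between these animals, of which only 2 were adult.

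The tissue labels were checked against marker genes. All 9 genes of a pouch list were detected in every embryo, with summed levels of 806 to 1889 CPM, against 745 and 671 CPM in the adults. Of these 9 genes, 3 were called higher in the embryo, among them *Hesx1* (log2 fold change 5.77) and *Lhx4* (4.29), and *Pitx1* was the most abundant. *Sox2* went the other way, at -0.70 (SE 0.25, adjusted p 0.0282), and at -1.58 (adjusted p 9.30e-05) after a correction for exon length and GC content. Of 8 genes of hormone cells, 7 were called higher in the adult, led by *Prl* (-17.19), *Gh* (-17.13) and *Lhb* (-11.68). The 8 genes summed to 873 to 1921 CPM in the embryos, and to 152620 and 160148 CPM in the adults, where *Gh* was the most abundant. The posterior lobe hormone gene *Avp* had no count in any embryo, but 1.75 and 3.43 CPM in the adults, at least 11.8-fold higher. *Oxt* stood at 1.58 and 1.69 CPM in the adults (-5.72), and *Nkx2-1*, the most abundant of these 3 posterior lobe genes, was called higher in the embryo (4.04).

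Embryos 1 and 4 stood apart from the other 5 before any gene of the domain was compared. Read pairs counted on genes made up 59.7% and 62.8% of all pairs in embryos 1 and 4, against 73.9% or more in the other embryos. Globin genes summed to 144647 and 186664 CPM in these 2 embryos and to 5597 to 16627 CPM in the other 5. The fold change of each of the 8 genes is therefore given with and without them. Because the samples were bulk tissue, fewer cells of a type and less RNA per cell cannot be told apart in any result that follows.

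In uncorrected counts the domain divided by position. The 4 genes at its distal end, *Ndn*, *Magel2*, *Mkrn3* and *Peg12*, were higher in the embryo, and the 4 at its proximal end, from *Atp10a* to *Snrpn*, were not. After the correction for length and GC content described below, the direction at the proximal end was not settled. *Ube3a* was then at 0.55 (adjusted p 0.202) and *Snhg14* at 0.46 (adjusted p 0.412). Of the 8 genes, 3 were called higher in the embryo, *Magel2*, *Mkrn3* and *Peg12*, where 11.3% of all tested genes were so called. None, 0 of 8, was called higher in the adult by edgeR or by the Wald test of DESeq2, where 14.6% of all tested genes were called by edgeR. At an unadjusted p below 0.05, 2 genes were lower in the embryo, *Ube3a* and *Snhg14*. Of all tested genes, at least the 27.4% that were lower at an adjusted p below 0.05 were so. With any fold change, an adjusted p below 0.05 was reached by 4 genes in the direction of the embryo, the same 3 and *Ndn*, against 24% of all tested genes. In the direction of the adult it was reached by 1 gene, *Snhg14*, against 27.4% of all tested genes, and *Ube3a* missed it by edgeR (0.0532) but not by DESeq2 (0.0434).

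**Figure D1:**
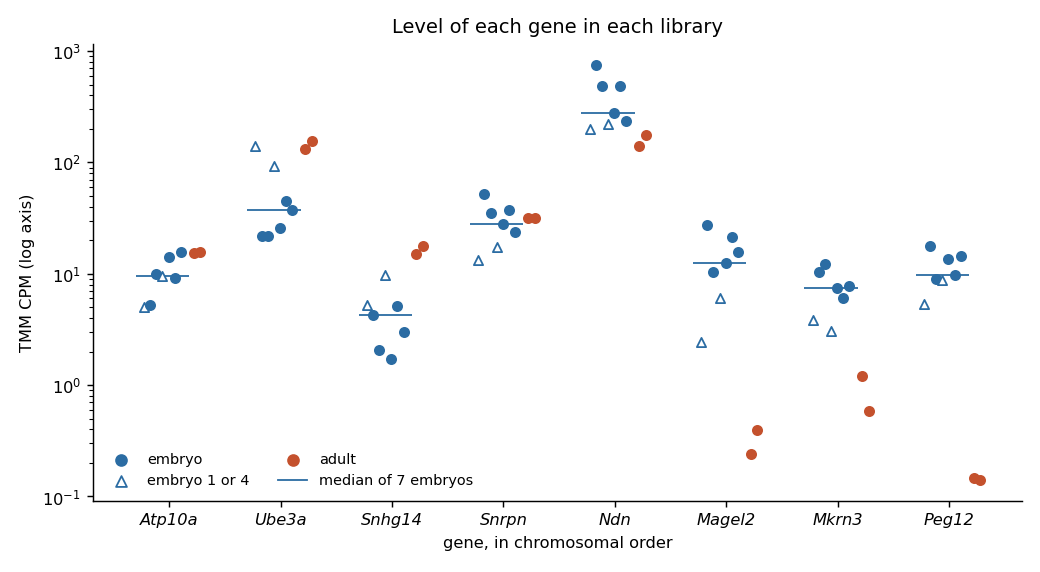
Level of each domain gene in CPM on a log axis, in each of 7 embryos (blue; open triangles for embryos 1 and 4; line, median) and 2 adults (red), in chromosomal order. All 7 embryos lie above both adults for *Ndn*, *Magel2*, *Mkrn3* and *Peg12*, and all 7 lie below them for *Snhg14*.

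The plot of levels by gene shows where the groups overlap. In uncorrected CPM they did not overlap for 5 of the 8 genes, the 4 at the distal end and *Snhg14*, which lay below, as for 59.1% of all tested genes. After a correction for exon length and GC content, described below for *Ube3a*, they did not overlap for the same 4 and *Atp10a*, which lay below. That is again 5 of the 8 genes, as for 58.7% of all tested genes. They did overlap for *Snhg14*, at 2.76 to 10.8 CPM in the embryos and 4.39 and 4.41 CPM in the adults. Before the correction a single embryo reached the adult range for *Ube3a*, and the embryos lay on both sides of the adults for *Snrpn* and *Atp10a*.

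Promoter sequences are shown for the 4 genes of the distal end, because they were higher in the embryo together, and for *Snrpn*, because its window holds the same motif as that of *Ndn*. All 8 genes have at least 1 window in the RefSeq promoter table (build GRCm38.p6), each from 250 bases before to 50 bases after a start site. There are 11 windows in all, where the 1 that *Snhg14* and *Snrpn* share is counted for both. The sequences run 5′ to 3′ on the strand of the gene, with capitals marking every match, on either strand, to 5 motifs: the NRF1 core CGCATGCG, the ETS core CCGGAAG, the GC box GGGCGG, the CCAAT box CCAAT and the TATA box TATAAA.
*Snrpn*, chr7:60005150-60005449, minus strand: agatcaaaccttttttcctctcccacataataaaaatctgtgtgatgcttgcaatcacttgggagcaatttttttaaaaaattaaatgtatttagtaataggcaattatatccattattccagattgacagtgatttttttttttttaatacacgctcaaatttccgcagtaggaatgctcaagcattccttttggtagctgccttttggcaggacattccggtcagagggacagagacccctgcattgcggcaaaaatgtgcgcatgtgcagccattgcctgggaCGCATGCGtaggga
*Ndn*, chr7:62348027-62348326, plus strand: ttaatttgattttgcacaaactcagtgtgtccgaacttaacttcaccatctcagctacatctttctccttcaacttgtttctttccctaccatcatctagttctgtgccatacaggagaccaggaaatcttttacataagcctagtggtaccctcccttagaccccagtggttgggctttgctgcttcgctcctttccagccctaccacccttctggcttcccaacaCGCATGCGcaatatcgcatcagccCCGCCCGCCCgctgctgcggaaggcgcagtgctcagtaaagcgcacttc
*Magel2*, chr7:62376729-62377028, plus strand: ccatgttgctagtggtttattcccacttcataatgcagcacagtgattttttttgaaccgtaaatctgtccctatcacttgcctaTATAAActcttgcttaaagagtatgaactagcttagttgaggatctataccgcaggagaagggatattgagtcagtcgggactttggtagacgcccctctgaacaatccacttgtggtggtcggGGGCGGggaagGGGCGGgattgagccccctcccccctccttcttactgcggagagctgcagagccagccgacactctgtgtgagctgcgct
*Mkrn3*, chr7:62420104-62420403, minus strand: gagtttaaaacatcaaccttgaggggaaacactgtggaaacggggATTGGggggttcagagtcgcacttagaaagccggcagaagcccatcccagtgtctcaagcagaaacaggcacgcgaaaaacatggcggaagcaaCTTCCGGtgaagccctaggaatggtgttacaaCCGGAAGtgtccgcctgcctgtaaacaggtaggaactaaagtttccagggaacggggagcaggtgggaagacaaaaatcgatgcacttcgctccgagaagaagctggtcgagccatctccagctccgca
*Peg12*, chr7:62464461-62464760, minus strand: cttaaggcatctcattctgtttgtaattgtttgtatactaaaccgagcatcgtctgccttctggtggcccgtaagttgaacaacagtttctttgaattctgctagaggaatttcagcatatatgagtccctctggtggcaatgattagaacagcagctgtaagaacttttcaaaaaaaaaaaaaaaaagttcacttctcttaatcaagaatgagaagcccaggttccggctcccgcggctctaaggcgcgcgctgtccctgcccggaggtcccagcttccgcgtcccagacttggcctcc
The windows of the 3 called genes share none of these motifs. The NRF1 core, present in 1.86% of all 32817 windows in the table, lies 36 bases after the start in the *Snrpn* window shown and 23 bases before it in the *Ndn* window. It was also found in the other 3 *Snrpn* windows, of which 1 is shared with *Snhg14*. *Ndn* and *Magel2* each hold 2 matches to the GC box, which is in 35.6% of all windows, and the 2 in *Ndn* overlap. The windows of *Atp10a* and *Ube3a*, with 3 and 2 matches, hold it too. *Mkrn3* holds 2 matches to the ETS core, at 111 and 79 bases before the start, and this core is in 8.86% of all windows. It also holds 1 CCAAT box, found in 37.4% of windows, and *Magel2* holds 1 TATA box match 165 bases before the start, found in 13.6%. The *Peg12* window held none of the 5. A match is a stretch of letters, and binding was not measured.

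*Atp10a* (ENSMUSG00000025324, chr7:58656166-58829420, plus strand), at the proximal end, encodes a P4-type ATPase that moves phospholipids across membranes. It was measured at 4.98, 9.52 and 15.8 CPM in the lowest, median and highest embryo, and at 15.4 and 15.8 CPM in adults 1 and 2. Of the 7 embryos, 6 lay below both adults, and embryo 7, the highest, lay at the level of the adults. At a log2 fold change of -0.66 (SE 0.41, adjusted p 0.188), a difference was not shown. Without embryos 1 and 4 it was -0.48 (adjusted p 0.309), after the correction for length and GC content described below for *Ube3a* it was -0.68 (adjusted p 0.144), and over its alternatives the adjusted p ran from 0.0124 to 0.395. The lowest levels were those of embryos 1 and 2, at 4.98 and 5.27 CPM, so *Atp10a* did not set embryos 1 and 4 apart together.

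*Ube3a* (ENSMUSG00000025326, chr7:59228750-59311536, plus strand) encodes a HECT-type ubiquitin ligase and is the Angelman syndrome gene. Its level was 21.7 CPM in the lowest embryo, 37.1 in the median and 142 in the highest, and 132 and 156 CPM in the adults. The high values were those of embryos 1 and 4, at 142 and 92.8 CPM, and the other 5 embryos lay between 21.7 and 44.9 CPM. Embryo 1 thus lay between the adults, and the other 6 lay below both. Over all 7 embryos the log2 fold change was -1.39 (SE 0.57, adjusted p 0.0532), and the Wald test of DESeq2 gave an adjusted p of 0.0434 at the same value. The adjusted p was also below 0.05 with library size alone (0.00915), with no filter on low counts (0.00409) and with at least 10 counts in every sample (0.0440). It was above 0.05 with DESeq2 size factors (0.0590). The same held without embryo 2 (0.0728), 3 (0.0913), 5 (0.0770), 6 (0.105) or 7 (0.0856). Without adult 1 the log2 fold change was -1.52, and without adult 2 it was -1.27. Leaving out embryo 1 gave -1.77 (adjusted p 0.00450) and leaving out embryo 4 gave -1.51 (adjusted p 0.0410). Without both it was -2.22 (SE 0.30, adjusted p 6.96e-05), past the threshold of a call. Over its alternatives the adjusted p of *Ube3a* ran from 6.96e-05 to 0.291.

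The direction for *Ube3a* depended on a correction for exon length and GC content. Its annotated exons cover 20626 bases and its longest transcript has a GC content of 36.9%. The length in this correction was that of all annotated exons. The longest transcripts of *Ube3a* and *Snhg14*, of 9856 and 6861 bases, were not tried as the length in it. When each library was corrected for the trend of counts with length and GC content, the 7 embryos came to 63.9 ± 25.2 CPM (mean ± SD) and the 2 adults to 43.6 ± 1.27 CPM. That is a log2 fold change of 0.55 (SE 0.35, adjusted p 0.202). The coefficient of variation of *Ube3a* over the embryos was 82.6% before the correction and 39.5% after it. Without embryos 1 and 4 the corrected value was 0.22 (adjusted p 0.291). The correction moved the median log2 fold change of all tested genes from -0.04 to -0.17. The data therefore do not settle whether *Ube3a* was higher or lower in the embryo.

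The 3′ end of *Ube3a* overlaps the opposite strand of *Snhg14* by 3.61 kb, so the strand of each read pair bears on both genes. On the strand of *Ube3a* there were 5430 and 5533 pairs in the adults and 540 to 1935 in the embryos. On the opposite strand, which is that of *Snhg14*, only 10 and 12 pairs fell on the exons of *Ube3a* in the adults. This was 0.184% and 0.216% of the sum of both strands, with 95% exact binomial intervals of 0.0882% to 0.338% and 0.112% to 0.378%. In the embryos it was 0 to 13 pairs, at most 2.35% of both strands, in embryo 3. Of the read pairs of both strands on the exons of *Ube3a*, almost all thus lay on its own strand. Such intervals cover counting error only.

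Counting without regard to strand removed pairs that fall on genes of both strands. It kept 62.9% to 84.4% of the *Ube3a* pairs, and removed 1961 and 2054 pairs in the adults. On the strand of *Ube3a*, the exons of the opposite genes *Snhg14*, *Gm44560* and *9330162G02Rik* together collected 2038 and 2121 pairs in the adults. The loss was largest in adult 2, where 62.9% were kept, and smallest in embryo 1, where 84.4% were kept. With unstranded counts the log2 fold change of *Ube3a* was -1.04 (SE 0.62, adjusted p 0.175).

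*Snhg14* (ENSMUSG00000100826, chr7:59307924-59975759, minus strand) is the long noncoding transcript that hosts small nucleolar RNAs and runs antisense to *Ube3a*. It was measured at 1.70, 4.26 and 9.81 CPM in the lowest, median and highest embryo and at 15.1 and 17.9 CPM in the adults. All 7 embryos lay below both adults, and embryo 4 was the highest of them. Its log2 fold change was -1.90 (SE 0.49, adjusted p 0.00529), a fold change of 3.74 and so short of a call. Leaving out embryo 4 gave -2.18 (adjusted p 0.00109) and leaving out adult 1 gave -2.04 (adjusted p 0.0258), and both pass the threshold. Leaving out adult 2 gave -1.79 with an adjusted p of 0.0525, above 0.05. Without embryos 1 and 4 it was -2.34 (SE 0.40, adjusted p 4.05e-04). Over its alternatives the adjusted p of *Snhg14* ran from 4.05e-04 to 0.412.

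The result for *Snhg14* also reversed with the correction for length and GC content. Its exons cover 26093 bases in 15 annotated transcripts, and the longest of these has a GC content of 31.0%, the lowest of the 8 genes. The corrected log2 fold change was 0.46 (SE 0.45, adjusted p 0.412), and 0.61 (adjusted p 0.183) without embryos 1 and 4. On the opposite strand of *Snhg14*, which includes the end of *Ube3a*, 38 to 183 pairs were counted per embryo, and 1151 and 1163 per adult. These were 64.9% and 64.6% of the pairs of both strands in adults 1 and 2, so over the exons of *Snhg14* the other strand was the more abundant in both. In the embryos this share ran from 32.9% in embryo 4 to 69.1% in embryo 5.

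*Snrpn* (ENSMUSG00000102252, chr7:59982495-60140219, minus strand) encodes SmN, a form of the Sm core protein of the splicing machinery that is found mainly in neurons. Its levels were 13.2, 27.8 and 51.9 CPM in the lowest, median and highest embryo, and 31.8 and 31.7 CPM in the adults. With 3 embryos above both adults and 4 below, *Snrpn* showed no difference beyond the spread of the embryos (log2 fold change -0.11, SE 0.41, adjusted p 0.843). Embryos 1 and 4 were the lowest, at 13.2 and 17.4 CPM, and without both the value was 0.16 (adjusted p 0.656). It was also above 0 without embryo 1 alone (0.06) and without embryo 4 alone (0.03). After the correction for length and GC content it was -0.54 (SE 0.41, adjusted p 0.295), and -0.23 without both embryos as well. The adjusted p over its alternatives ran from 0.295 to 0.951.

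*Ndn* (ENSMUSG00000033585, chr7:62346569-62350262, plus strand) encodes necdin, a MAGE family protein known for holding back the growth of neurons. It lies 2206 kb beyond *Snrpn*, across the widest gap between neighbouring members. Its level was 199, 280 and 754 CPM in the lowest, median and highest embryo, against 141 and 177 CPM in the adults. All 7 embryos were above both adults, embryos 1 and 4 the least so, at 199 and 224 CPM. Its log2 fold change was 1.26 (SE 0.49, adjusted p 0.0430), a fold change of 2.39, below that of a call. Without embryos 1 and 4 it was 1.51 (SE 0.42, adjusted p 0.00840), and after the correction for length and GC content 1.40 (adjusted p 0.0402).

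That *Ndn* passed an adjusted p of 0.05 rested on single libraries and on the scaling. Its adjusted p over the alternatives ran from 0.00369 to 0.230. It was above 0.05 without embryo 2 (log2 fold change 1.0, adjusted p 0.0527), without embryo 3 (1.23, 0.0558) and without embryo 6 (1.22, 0.0599). The same held without adult 1 (1.09, 0.230) and without adult 2 (1.41, 0.133), where the lone adult is assumed to vary like the embryos. With library size alone it was at 1.05 (adjusted p 0.106). *Ndn* was higher in the embryo in each of these.

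*Magel2* (ENSMUSG00000056972, chr7:62377010-62381640, plus strand) encodes a MAGE protein that acts with the ubiquitin ligase TRIM27 on the WASH complex in the recycling of membrane proteins from endosomes. It starts 26.7 kb beyond *Ndn*. Its counts were 33, 343 and 804 in the lowest, median and highest embryo, and 10 and 14 in the adults. The lowest embryo, embryo 1, was still above both adults in CPM, but embryo 2 was 11.2-fold above embryo 1, the widest range over the embryos among the 8 genes. This gave a log2 fold change of 5.42 (SE 0.92, adjusted p 2.87e-04), or 42.7-fold. Without embryos 1 and 4, which at 2.42 and 6.07 CPM were the lowest, it was 5.79 (SE 0.57, adjusted p 8.10e-06). After the correction for length and GC content it was 5.26 (adjusted p 7.85e-04). The adjusted p over its alternatives ran from 5.07e-14 to 0.00751.

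*Mkrn3* (ENSMUSG00000070527, chr7:62417593-62420139, minus strand) encodes a makorin RING finger protein whose loss causes central precocious puberty. Its levels were 3.03, 7.47 and 12.2 CPM in the lowest, median and highest embryo and 1.21 and 0.590 CPM in the adults. The groups did not overlap, and embryos 4 and 1, at 3.03 and 3.88 CPM, came closest to the adults. The fold change was 3.0 on the log2 scale (SE 0.63, adjusted p 0.00135), or 8.00-fold. Adult 1 had 50 counts and adult 2 had 21, and the value depended on which was kept: it was 3.59 (adjusted p 0.00877) without adult 1 and 2.57 (adjusted p 0.0311) without adult 2. After the correction for length and GC content it was 2.30 (SE 0.54, adjusted p 0.00408), and without embryos 1 and 4 it was 3.29 (adjusted p 1.62e-04). Over its alternatives the adjusted p of *Mkrn3* ran from 1.70e-07 to 0.0311.

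*Peg12* (ENSMUSG00000070526, chr7:62461871-62464510, minus strand), at the distal end, encodes a FRAT family protein that binds the kinase GSK3. Its levels were 5.35, 9.85 and 17.7 CPM in the lowest, median and highest embryo. In the adults it had 6 and 5 counts, close to the floor of 3 counts. All 7 embryos lay far above both adults, with 73 to 524 counts. On the log2 scale the fold change was 6.25 (SE 0.66, adjusted p 5.88e-06), or 76.1-fold, the largest of the 8. It was 6.48 without embryos 1 and 4 and 5.57 (SE 0.66, adjusted p 3.61e-05) after the correction for length and GC content. Its adjusted p over the alternatives ran from 2.46e-23 to 3.12e-04.

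**Figure D2:**
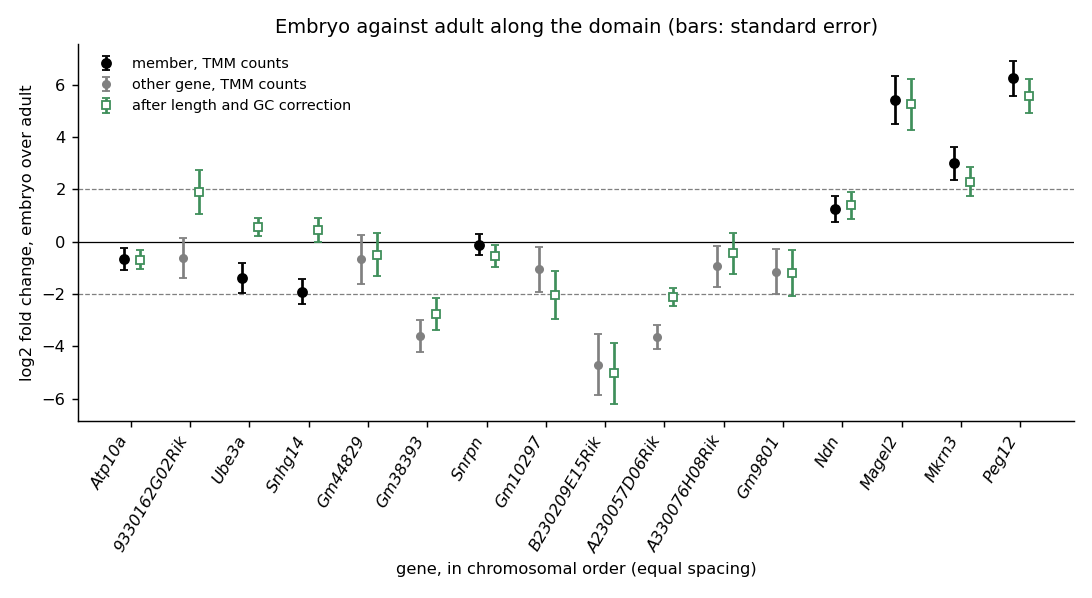
Log2 fold change of embryo over adult, with its standard error, for each domain gene tested with counts in both groups, in chromosomal order at equal spacing (black, members; grey, other genes; green squares, after correction for length and GC content; dashed lines, fold change of 4). *Magel2*, *Mkrn3* and *Peg12*, at 5.42, 3.0 and 6.25, lie above the upper line, and the corrected values of *Ube3a* and *Snhg14*, at 0.55 and 0.46, lie on the other side of 0 from the uncorrected ones.

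Levels can be compared between genes only per length, and here CPM was divided by the kilobases of annotated exon. The counts were not corrected for length and GC content, on which the place of *Ube3a* and *Snhg14* may depend. On that scale *Ndn* was the most abundant of the 8 in both groups, at 103 ± 55.1 over the 7 embryos (mean ± SD) and 43.0 ± 6.76 over the 2 adults. *Snrpn* came next in both, at 13.6 ± 6.10 and 14.7 ± 0.0139. With only exon bases not shared on the same strand as its length, *Snrpn* was at 18.8 ± 8.39 and 20.2 ± 0.0190. With all exons as the length, *Peg12* followed *Snrpn* in the embryo, at 4.25 ± 1.58, but was last in the adult, at 0.0542 ± 0.00131.

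The middle of the order was not separated in the embryo. After *Peg12* came *Magel2*, *Mkrn3*, *Ube3a* and *Atp10a*, at 2.95 ± 1.86, 2.84 ± 1.29, 2.67 ± 2.21 and 1.76 ± 0.731 CPM per kb. From *Peg12* to *Atp10a*, each gene differed from the one before it by less than the SD of the higher gene. *Snhg14* was the lowest, at 0.170 ± 0.105. In the adult the order after *Snrpn* was *Ube3a* at 6.96 ± 0.820, *Atp10a* at 2.79 ± 0.0478, *Snhg14* at 0.633 ± 0.0768, *Mkrn3* at 0.354 ± 0.173 and *Magel2* at 0.0687 ± 0.0231. There *Magel2* and *Peg12*, the lowest, lay within 1 SD of *Magel2* of each other. *Ube3a* and *Snhg14* depend on the length used: with the longest transcript in place of all exons they were 5.59 and 0.648 in the embryo, where *Ube3a* was then above *Peg12*, and 14.6 ± 1.72 and 2.41 ± 0.292 in the adult, where *Ube3a* was then within its spread of *Snrpn*, at 15.3 ± 0.0144.

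As a share of the 8 genes' summed level per kb, the domain was dominated by *Ndn* at both stages. *Ndn* made up a median of 74.8% of the sum in the embryos, with a range of 69.9% to 82.7%, and 60.5% and 64.7% in the adults. *Snrpn* made up 10.1% of the sum in the median embryo, and 23.3% and 19.9% of it in the adults. *Magel2*, *Mkrn3* and *Peg12*, at medians of 2.38%, 2.11% and 2.81% in the embryos, each made up less than 1% in both adults. These shares are from uncorrected counts and were not tested.

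The domain holds many genes besides the 8. Between the start of *Atp10a* and the end of *Peg12* the annotation has 279 genes, so 271 others, of which 238 had no count in any library. These include all 210 annotated snoRNAs, which poly(A) selection does not target. *Snurf*, which shares its exons with *Snrpn*, also had no count, so its reads could not be assigned to it. Of the 9 others that were tested, 1 was called higher in the embryo, 3 were called higher in the adult and 5 were not called. The median log2 fold change of the 9 was -1.06.

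The genes called higher in the adult lie on the minus strand from the end of *Snhg14* onwards. *Gm38393*, which overlaps the spans of *Snhg14* and *Snrpn* on the same strand, had 0.149 to 0.963 CPM in the embryos and 4.41 and 5.82 CPM in the adults (log2 fold change -3.61, SE 0.62). *A230057D06Rik*, between *Snrpn* and *Ndn*, had 0.616 to 2.42 CPM in the embryos and 12.9 and 17.9 CPM in the adults (-3.64, SE 0.46). *B230209E15Rik*, also between them, had 0 to 4 counts per embryo, and 14 and 51 in the adults (-4.70). After the correction for length and GC content these values were -2.77, -2.11 and -5.03, in the same direction. The gap between *Snrpn* and *Ndn* thus held transcripts higher in the adult, next to the distal genes that were higher in the embryo.

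*Gm32061*, on the minus strand across *Ndn*, *Magel2* and *Mkrn3*, had 0 to 32 counts in the embryos and none in either adult, at least 7.59-fold higher in the embryo against a floor of 3 counts per library. Embryos 1 and 4 were not alike in it, with 0 and 17 counts. *A330076H08Rik*, the most abundant of the 9 others, was not called (-0.94, SE 0.79, adjusted p 0.330). Its levels in embryos 1 and 4, 16.1 and 17.1 CPM, lay above both adults, at 10.9 and 13.9 CPM, while the other 5 embryos lay at 1.35 to 3.72 CPM. As for *Ube3a*, these 2 embryos were the highest of the 7, and without them the value was -2.29 (SE 0.39, adjusted p 3.94e-04), past the threshold of a call.

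Beyond the domain on the proximal side, 9 neighbouring genes were tested. Of these, 0 were called higher in the embryo by edgeR, 0 by DESeq2 and 0 at an unadjusted p below 0.05, and 4 were called higher in the adult, among them *Oca2* (log2 fold change -5.00), *Gabrg3* (-4.97) and *Herc2* (-3.13). Higher in the adult at an unadjusted p below 0.05 were 6. The median of the 9 was -1.60, against -0.04 for all tested genes, and after the correction for length and GC content -1.35, against -0.17, with 3 called. Scaling by library size alone moved the median of all tested genes to -0.26 and that of the 9 to -1.78. The most abundant, *Cyfip1*, was level at 0.03 (SE 0.28), but at 1.21 (adjusted p 0.00434) after the correction. *Nipa2* changed sign, from -0.19 to 0.80 (adjusted p 0.00611).

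The relatives and partners of the domain genes were compared next, from lists of their families. Every family list is given by its counts and its median log2 fold change, beside the -0.04 of all tested genes. The Wald test of DESeq2 gave the same number of calls as edgeR in each direction for every list. The question was whether a family moved with its domain gene.

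SmN, the product of *Snrpn*, can replace SmB, the product of *Snrpb*, in the Sm core. Of 7 Sm core genes, 6 were called higher in the embryo, led by *Snrpe* (3.72), *Snrpg* (3.65) and *Snrpd2* (3.24, the most abundant by CPM), with a median of 2.78. The median was 2.76 with DESeq2 size factors, 2.51 with library size alone and 2.30 after the correction for length and GC content, with 5 called, so the direction held under each scaling. *Snrpb* itself was at 1.67 (SE 0.29, adjusted p 3.27e-04), but at 0.71 (adjusted p 0.0137) after the correction, and *Snrpn* was at -0.11 and -0.54. Per kb, *Snrpb* was 6.27- to 25.1-fold above *Snrpn* in the embryos, with a median of 10.1, and 3.27- and 2.66-fold above it in the adults. *Snrpn* thus made up a larger part of the pair in both adults than in any embryo. The length of *Snrpn* here includes exon bases shared on the same strand, so its level may be understated in both groups.

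*Peg12* has 2 close relatives, *Frat1* and *Frat2*. *Frat1* was level, at 0.04 (SE 0.31), and *Frat2* was at 1.87 (SE 0.38, adjusted p 0.00106), short of a call. After the correction for length and GC content they were at -0.60 (adjusted p 0.0903) and 1.11 (adjusted p 0.0304). Per kb, *Frat1* and *Frat2* stood at a median of 1.13 and 1.57 times the level of *Peg12* in the embryos, so the 3 genes were at similar levels there. In the adults *Frat1* was 109- and 83.8-fold above *Peg12*, and *Frat2* 37.7- and 24.9-fold. Of 8 genes of the FRAT, GSK3 and axin list, 0 were called higher in the embryo by edgeR, 2 were so at an unadjusted p below 0.05, and 1, *Apc* (-2.55), was called higher in the adult. Higher in the adult at an unadjusted p below 0.05 were 2. The median was 0.21, but -0.32 after the correction for length and GC content, when *Apc* was at -0.95 and no longer called. The most abundant gene was *Ctnnb1* (0.86, SE 0.34).

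The makorins *Mkrn1* and *Mkrn2* were not called, nor below an unadjusted p of 0.05, at 0.66 (SE 0.48, adjusted p 0.267; 0.12 without embryos 1 and 4) and 0.42 (SE 0.28, adjusted p 0.231), and *Mkrn1* was the more abundant. *Mkrn2* was at 0.88 (adjusted p 0.0123) after the correction for length and GC content. The median of the 2 was 0.54, and 0.68 after the correction. Per kb, *Mkrn2* was 1.55- to 4.89-fold above *Mkrn3* in the embryos and 10.3- and 20-fold above it in the adults. The ratio of *Mkrn1* to *Mkrn3* overlapped between the groups: it was 6.26 to 66.6 in the embryos, with a median of 8.38, and 52.2 and 102 in the adults. Embryo 4, with the lowest *Mkrn3* and the highest *Mkrn1*, at 352 CPM, set the upper end of that range.

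**Figure D3:**
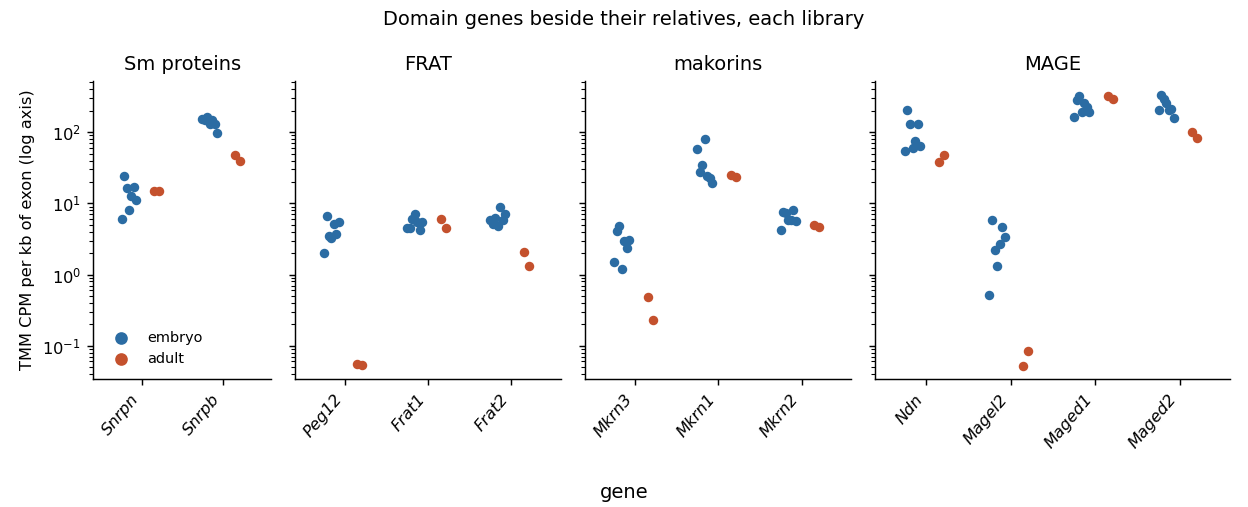
Level per kilobase of exon (CPM per kb, log axis) of *Snrpn*, *Peg12*, *Mkrn3*, *Ndn* and *Magel2* beside relatives of the same family, in each of 7 embryos (blue) and 2 adults (red). *Frat1* is at a median of 1.13 times *Peg12* in the embryos and at 109 and 83.8 times in the adults.

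The MAGE relatives of *Magel2* and *Ndn* were compared as a list. Of 8 listed, 7 were tested, of which 1, *Magee1* (-2.02), was called higher in the adult and 0 higher in the embryo by edgeR, where 1 had an unadjusted p below 0.05. That gene, *Maged2*, at 1.37 (SE 0.34, adjusted p 0.00417), passed the adjusted p alone. The median was 0.03, and -0.59 after the correction for length and GC content. The most abundant, *Maged1*, was at -0.41 (SE 0.30). Per kb, *Maged1* was 1.40- to 3.36-fold above *Ndn* in the embryos and 8.47- and 6.19-fold above it in the adults. Between the neighbours themselves, *Ndn* was 18.9- to 103-fold above *Magel2* in the embryos, with a median of 34.8, and 731- and 563-fold above it in the adults, so *Magel2* was lower in the adult by more than *Ndn* was.

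The genes whose proteins act with MAGEL2 were present at both stages. Of 11 genes of the TRIM27, USP7, WASH and retromer list, 0 were called higher in the embryo by edgeR, 4 were so at an unadjusted p below 0.05, and 1, *Washc4* (-2.41), was called higher in the adult. Higher in the adult at an unadjusted p below 0.05 were also 4. *Trim27* was at 0.87 (SE 0.26, adjusted p 0.0134) and *Usp7* at -1.70 (SE 0.23, adjusted p 5.43e-05). The most abundant, *Vps29*, was at 1.10 (SE 0.33, adjusted p 0.0118). The median was -0.34, but 0.09 after the correction for length and GC content. The largest absolute change among the 11 was that of *Washc4* before the correction and that of *Vps29*, at 1.91, after it, when *Washc4* was at -1.60 and 0 of the 11 were called by edgeR.

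For *Atp10a*, the flippase list held 14 genes, including the subunit genes *Tmem30a* and *Tmem30b*. Of these, 4 were called higher in the adult, *Atp8a1* (-3.86), *Tmem30a* (-2.89), *Atp11b* (-2.39) and *Atp11a*, and 0 in the embryo by edgeR, where 1, *Atp10b*, had an unadjusted p below 0.05 (1.53, adjusted p 0.0210). In the direction of the adult, 9 had an unadjusted p below 0.05. The median was -1.19, and -0.79 after the correction for length and GC content, where 1 gene was called higher in the embryo and 2 in the adult. The most abundant was *Atp9a* (-0.75, SE 0.28). *Atp10a*, at -0.66, thus lay closer to 0 than the median of its family.

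For *Ube3a*, the list of HECT ligases with the partner *Ube2l3* held 15 genes, of which 5 were called higher in the adult, among them *Herc2* (-3.13) and *Herc1* (-2.75), and 0 in the embryo by edgeR, with 3 at an unadjusted p below 0.05. In the direction of the adult, 8 had an unadjusted p below 0.05. The median was -0.88. As with *Ube3a*, the correction for length and GC content took most of this away: the median became -0.11, beside -0.17 for all tested genes, 0 of the 15 were called by edgeR in either direction, and 4 changed sign. The most abundant, *Nedd4*, was at -0.38 (SE 0.36) and at 0.69 after the correction.

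The embryos differed from each other in a pattern that ran through much of the domain. In uncorrected CPM, embryos 1 and 4 had the lowest levels of all 7 for *Snrpn*, *Ndn*, *Magel2*, *Mkrn3* and *Peg12*, and the highest for *Ube3a* and *Snhg14*. Embryo 2 had the highest level of *Snrpn*, *Ndn*, *Magel2* and *Peg12*, and the lowest of *Ube3a*. After the correction for length and GC content this order held in part. Embryos 1 and 4 were again the lowest for *Snrpn*, *Magel2* and *Mkrn3* and the highest for *Ube3a*, at 107 and 92.7 CPM. For *Snhg14*, embryo 1 became the lowest, at 2.76 CPM, and embryo 2 the highest, at 10.8 CPM, followed by embryo 4 at 8.29 CPM. The lowest embryo was then embryo 7 for *Ndn*, and embryo 4 was no longer among the lowest 2 for *Peg12*. The highest was embryo 6 for *Magel2*, at 26.7 CPM, and embryo 7 for *Peg12*, at 16.9 CPM, in place of embryo 2.

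**Figure D4:**
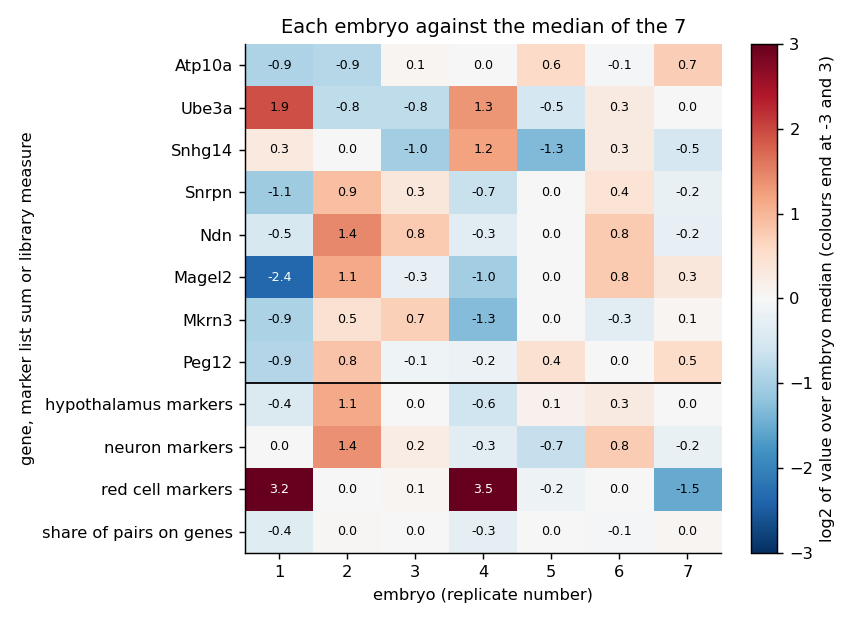
Log2 of each embryo's value over the median of the 7 embryos, for the 8 domain genes, 3 marker list sums and the share of read pairs on genes. Embryos 1 and 4 are low for *Snrpn*, *Ndn*, *Magel2*, *Mkrn3* and *Peg12* and high for *Ube3a* and red cell markers.

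Among the other 5 embryos in uncorrected CPM, all 5 lay above both adults for *Ndn*, *Magel2*, *Mkrn3* and *Peg12*, and all 5 lay below both for *Ube3a* and *Snhg14*. For *Snrpn*, 3 lay above and 2 below, and for *Atp10a*, 1 above and 4 below. Without embryos 1 and 4 the groups thus did not overlap for 6 of the 8 genes, and for 67.1% of all tested genes. After the correction, *Ube3a* and *Snhg14* overlapped among these 5 as well, and *Atp10a* did not. The groups then did not overlap for 5 of the 8 genes, and for 67.5% of all tested genes.

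Markers of neighbouring tissue were compared with this pattern. The 5 hypothalamus genes *Nkx2-1*, *Rax*, *Otp*, *Sim1* and *Fezf1* were all called higher in the embryo, 5 of 5, led by *Otp* (8.44), *Fezf1* (7.51) and *Rax* (4.83, the most abundant). They summed to 57.2, 169, 76.5, 50.6, 84.1, 92.2 and 77.0 CPM in embryos 1 to 7. In adults 1 and 2 the sum was 2.62 and 3.94 CPM, with *Otp* and *Sim1* at 0 in adult 1 and *Fezf1* at 0 in adult 2. Embryo 2, the highest for *Magel2* and *Ndn* in uncorrected CPM, had the highest sum, and embryos 4 and 1 had the lowest. Not every gene of the list followed its sum, since *Sim1* was highest in embryo 1, at 2.42 CPM, and at 0.777 CPM in embryo 2. *Nkx2-1* is also on the posterior lobe list. The part of such tissue in the levels of *Magel2*, *Ndn* and their neighbours was not tested.

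A general neuron list was compared in the same way. Its 10 genes summed to 169, 436, 199, 135, 105, 285 and 145 CPM in embryos 1 to 7 and to 883 and 921 CPM in the adults, and none was at 0 in any library. Of the 10, 4 were called higher in the adult (3 after the correction for length and GC content, when *Map2* was at -1.49), led by *Snap25* (-5.07), *Syt1* (-4.81) and *Map2* (-2.84, the most abundant), and 0 in the embryo by edgeR or at an unadjusted p below 0.05. The fourth was *Rbfox3* (-2.20), and 6 of the 10 were higher in the adult at an unadjusted p below 0.05. Embryo 2 was again the highest embryo by the sum. Of the 10 genes, 4, *Tubb3*, *Stmn2*, *Gap43* and *Elavl3*, were higher in embryo 2 than in both adults, at 188, 102, 37.9 and 13.8 CPM, against 74.8, 17.5, 9.82 and 10.0 CPM in adult 1 and 37.3, 19.2, 13.5 and 12.3 CPM in adult 2. The other 6 were lower in embryo 2 than in both adults, among them *Elavl4*, at 7.03 CPM against 12.5 and 16.8 CPM, and *Dcx*, at 8.01 CPM against 25.7 and 16.8 CPM. Over all 7 embryos *Elavl3* was at -1.03. The part of neurons in the levels of the domain genes was not tested.

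Other lists were compared for the same reason. Of 7 mesenchyme genes, 5 were called higher in the embryo, led by *Twist1* (4.26), *Col3a1* (2.87, the most abundant) and *Col1a1* (2.42), and 1, *Prrx1* (-2.82), higher in the adult. Of 5 endothelium genes, 1 was called higher in the embryo, *Emcn* (2.22), the most abundant. Of 4 macrophage genes, 1 was called higher in the adult, *Ptprc* (-2.91), and *C1qb* was the most abundant. Neither *Prrx1* (-1.50) nor *Ptprc* (-0.82) was called after the correction for length and GC content. Among the embryos, the endothelium and macrophage sums were highest in embryo 2, at 432 and 220 CPM. The mesenchyme sum was highest in embryo 7, at 2202 CPM. Embryo 2 also had the lowest pouch sum of the embryos, at 806 CPM. All 5 globin genes were called higher in the embryo, led by *Hbb-y* (17.83, the most abundant), *Hbb-bh1*, which was at least 7380-fold higher than in the adults, where it had no count, and *Hba-x* (16.79). After the correction 3 of the 5 were called. *Hbb-y* was at 15.88, *Hba-x* at 14.66 and *Hbb-bh1* at least 2026-fold higher than in the adults without embryos 1 and 4. The globin sum was highest in the 2 embryos in which *Ube3a* was highest, and its part in the level of *Ube3a* was not tested.

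The genes most like 3 of the members over the 7 embryos were sought among 12742 genes that averaged 100 counts or more. By Pearson correlation of log2 CPM over the 7 embryos, *Magel2* was closest to *Gpr50* (r = 0.992), *Jam3* (0.983) and *Slc35b4* (0.983). *Ndn* was closest to *Tmem59* (0.991), *Pitpna* (0.985) and *Lrpap1* (0.979), and *Ube3a* to *Hmgn5* (0.998), *Pgap1* (0.996) and *Lrif1* (0.995). All these correlations rest on the same 7 libraries, embryos 1 and 4 among them, and are given as a description.

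Likeness over the embryos did not carry over to the comparison with the adult for all of these genes. *Gpr50*, like *Magel2*, was called higher in the embryo (2.58, SE 0.91, adjusted p 0.0284), with 1.17, 8.08 and 31.9 CPM in the lowest, median and highest embryo and 1.79 and 2.28 CPM in the adults. *Jam3* was at 1.01 (SE 0.37, adjusted p 0.0341), short of a call, and *Slc35b4* (-0.02, SE 0.35) was level between the stages. The 3 genes closest to *Ndn* were not called, at -0.12, 0.41 and -0.39. *Pgap1* (-2.72, SE 0.45) and *Lrif1* (-2.05, SE 0.49) were called higher in the adult, in the direction of the uncorrected *Ube3a*. *Hmgn5*, the closest to *Ube3a*, was at -1.48 (SE 0.62, adjusted p 0.0586) and not called.

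**Figure D5:**
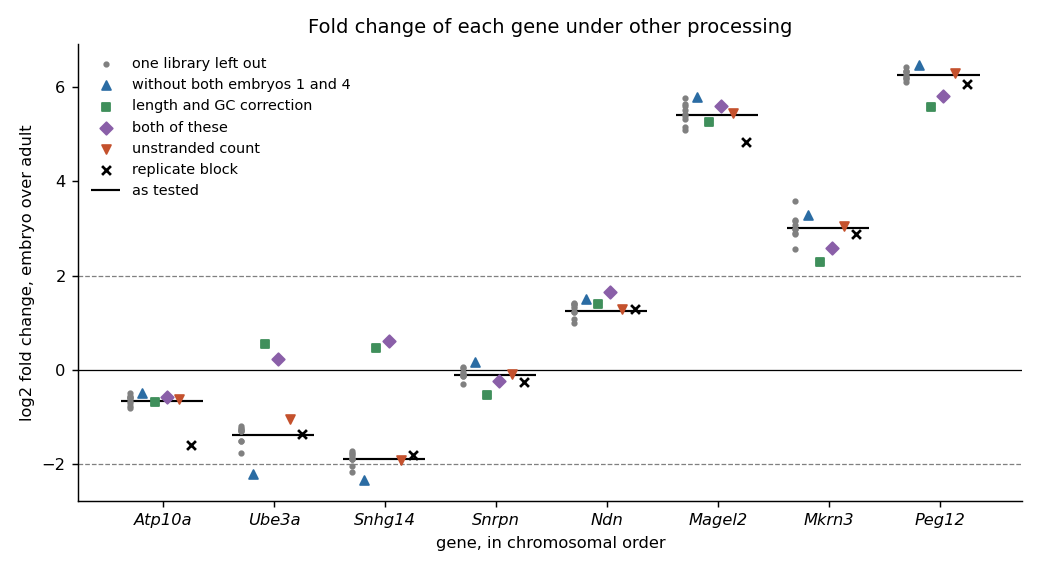
Log2 fold change of embryo over adult for each domain gene as tested (black line) and under other processing (points), with dashed lines at a fold change of 4. *Ube3a* runs from -2.22 to 0.55 and *Snhg14* from -2.34 to 0.61, while *Magel2*, *Mkrn3* and *Peg12* stay between 2.30 and 6.48.

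Across all processing tried, the 4 distal genes kept their direction, and 3 of the 4 proximal genes did not. The log2 fold change ranged from 4.83 to 5.79 for *Magel2*, from 2.30 to 3.59 for *Mkrn3*, from 5.57 to 6.48 for *Peg12* and from 1.0 to 1.65 for *Ndn*. It was negative throughout for *Atp10a*, from -1.60 to -0.48. For *Ube3a*, *Snhg14* and *Snrpn* it was found on both sides of 0.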

How the data were processed

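The authors prepared directional libraries from poly(A) RNA. As the submitters' processing notes give it, reads were trimmed with Trimmomatic 0.39 and aligned with STAR 2.7.5b to mm10 (GRCm38). The deposited files hold raw counts of read pairs per gene, made by the authors with STAR and not normalised. All 55450 identifiers matched GENCODE M21. The count on the sense strand of each gene was used, and no sample was left out.

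Counts were scaled by TMM and genes averaging 5 counts or more were tested in edgeR 4.0.16 (R 4.3.3) by its quasi-likelihood test, with stage as the only term. In the main fit, p-values were adjusted over the 19371 genes tested by the Benjamini-Hochberg method. The alternatives tested 13491 to 31896 genes. Depth was 16738863 to 36421545 read pairs per library, and 3 counts, the floor, correspond to at most 0.220 CPM in an embryo and 0.0843 CPM in an adult. Intervals are exact (Clopper-Pearson) and, like floors, cover counting error only. Levels per kb divide by the union of annotated exons. Tables were made in Python 3.11.15 (pandas 2.3.3, numpy 2.4.6, scipy 1.17.1) and figures in matplotlib 3.10.9.

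The members and lists were chosen with earlier results of these data known. Genes were named from those that a rule gives, not all of which are listed: the 8 members; from each list the most abundant gene and up to 3 genes with the largest absolute log2 fold change among those called in each direction; and the 3 genes averaging 100 counts or more that were most correlated with *Magel2*, *Ndn* or *Ube3a* over the embryos. Other named genes were chosen after their values were seen.

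Alternatives were the Wald test of DESeq2 1.42.0, its size factors, library size alone, other filters on low counts, the unstranded count, a fold change above 2 or none, a replicate block, a correction for length and GC content (by splines of 4 degrees of freedom through genes averaging 50 counts or more), and each library, or both embryos 1 and 4, left out. In that correction the length was the union of annotated exons and the GC content was that of the longest transcript. The correction combined with leaving out both embryos, and exon bases not shared on the same strand as the length, were added after seeing the data.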

Additional observations from a re-analysis of the deposited data

Results flagged for a closer look

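Among the 7 embryos, 2 of the 18 quantities examined (the 8 domain genes, 9 marker list sums and the share of read pairs on genes) had a single sample set apart from the rest by a gap that is large for the range of the group. *Snhg14* was at 9.81 CPM in embryo 4, and the gap to the next embryo was 0.57 of the whole range. The summed hypothalamus markers were at 169 CPM in embryo 2, with a gap of 0.649 of the range. With a 95% rule, about 1 such quantity in 20 is set apart by chance.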

How the results depend on the processing

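The number of domain genes called higher in the embryo was 3 by edgeR and 2 to 4 over 22 alternatives. It was 2 with at least 10 counts in every sample, where *Peg12* was no longer tested and 9.46% of all tested genes were so called, and 4 with a fold change above 2, where 21.4% were, against 11.3% in the main fit. The number called higher in the adult was 0, where 14.6% of all tested genes were so called. It was 1 with library size alone, with a fold change above 2 and with no threshold on fold change, each time *Snhg14*. With these settings in turn, 16.8%, 24.8% and 27.4% of all tested genes were so called. It was 2 without both embryos 1 and 4 (*Ube3a* and *Snhg14*), where 16.2% of all tested genes were so called. It was 0 to 1 when single embryos were left out, where 13.5% to 15.3% of all tested genes were. After the correction for length and GC content, the log2 fold changes of *Ube3a* and *Snhg14* reversed to 0.55 and 0.46, and without both embryos 1 and 4 as well, they were 0.22 and 0.61. That of *Snrpn* reversed to 0.16 without both embryos, was -0.54 after the correction, and was -0.30 to 0.063 when single libraries were left out. The cause was not tested. With a replicate block, which pairs animals of the same number, 3 genes were called higher in the embryo and 0 in the adult. Of all tested genes, 9.27% and 12.6% were so called. Under the block *Atp10a* was at -1.60 (adjusted p 0.0124) and *Ube3a* at -1.36 (adjusted p 0.00692). The numbers only number the animals, and deviations of same-numbered animals correlated at 0.0345 and 0.0237. The block moved the median of all tested genes to -0.20. With 1 adult left out, the other is assumed to vary like the embryos. Depth limits *Peg12* and *Magel2* in the adults, where they had 5 to 14 counts.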
